A study of Mus musculus with 12 samples.

Results

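The 10 genes described here, which encode the replicative helicase and factors of its loading, were followed through RNAseq of sorted peritoneal cavity (PerC) B cells, namely Mcm2, Mcm3, Mcm4, Mcm5, Mcm6, Mcm7, Cdc45, Gins1, Gins2 and Cdc6. They were chosen by name, all 10 were found among the 56941 genes of the count table, and all 10 passed the filter on low counts that left 15148 genes for testing. The 12 libraries came from 4 groups of 3, B2 of control mice, MemB of control mice, B2 of KI mice and MemB of KI mice, where B2 cells were sorted as IgD+IgM+ and MemB cells as IgD-IgM-. KI mice carry Cd21-Cre and a Rosa26 allele in which a stop cassette flanked by loxP sites precedes a truncated, gain-of-function mouse Gpr34 and, behind an internal ribosome entry site, GFP. The other mice are labelled control, and their alleles at Cd21 and Rosa26 are not given in the sources used here. Cd21-Cre acts in mature B cells and in follicular dendritic cells, and the sort gates given name IgD and IgM but not GFP, so KI libraries may hold cells in which the allele was not switched on. The series asks how the KI allele affects gene expression in these cells. The labels give no age for single mice.

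Before a cell copies its DNA, origins are licensed in G1. CDC6, with the origin recognition complex and CDT1, loads the ring-shaped MCM2 to MCM7 complex onto DNA in an inactive form. At the start of S phase CDC45 and the GINS complex join each ring to form the active CMG helicase, which unwinds DNA ahead of the polymerases. Resting lymphocytes are out of the cycle, and transcription of many of these genes, which are known targets of E2F transcription factors, rises when cells re-enter it.

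Start sites of the 10 genes differ in how many E2F words surround them. In GRCm39 with GENCODE M39 genes, the assembly that mm39 denotes, Mcm2 spans chr6:88860452-88875762, Mcm3 chr1:20870791-20890536, Mcm4 chr16:15440211-15455264, Mcm6 chr1:128259311-128287516, Mcm7 chr5:138162844-138170684, Cdc45 chr16:18599195-18631551 and Gins2 chr8:121305372-121316043, all on the minus strand. Mcm5 spans chr8:75836140-75856231, Gins1 chr2:150747320-150773202 and Cdc6 chr11:98798507-98814766, all on the plus strand. From 250 bases before to 50 bases after the start of each gene's canonical transcript, both strands were searched for the E2F words TTTGGCGC, TTTCCCGC, TTTCGCGC and TTTGCCGC. At least 1 word was found in 6 of the 10 genes, against 614 of 21757 promoters of the same length (2.82%). The blocks are shown because the presence of such a word divides these genes. Capitals mark the words, on the gene's own strand or as their reverse complement, with up to 9 bases on either side, 5′ to 3′ along the gene, and a block longer than 8 capitals holds 2 overlapping words.
Mcm3, chr1:20890501-20890526, minus strand: acttccgtgGCGGGAAAacttgggaa
Mcm3, chr1:20890487-20890507, minus strand: ttgggaagtTTTGGCGCcaag
Mcm4, chr16:15455472-15455497, minus strand: ggccccgggTTTCCCGCcaaaacgca
Mcm4, chr16:15455326-15455351, minus strand: ctacacgccTTTGCCGCtgtgattgg
Mcm5, chr8:75835975-75836004, plus strand: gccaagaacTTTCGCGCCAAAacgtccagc
Mcm6, chr1:128287532-128287561, minus strand: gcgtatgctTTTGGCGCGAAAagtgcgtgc
Mcm6, chr1:128287473-128287498, minus strand: ttggacgggTTTGGCGCgaagtagct
Gins1, chr2:150751496-150751525, plus strand: ttgagcctaTTTGGCGCCAAAgcgaggagc
Cdc6, chr11:98798658-98798676, plus strand: tagagcggcTTTGGCGCga
No such word was found in the windows of Mcm2, Mcm7, Cdc45 and Gins2, which says only that these letters are not there. The word CCAAT, searched on both strands, was present in 8 of the 10 windows (80.0%) and in 39.9% of all promoters.

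Libraries held between 29895031 and 39732039 counts. Ribosomal RNA genes searched by name, with mitochondrial ones among those searched, took 29.27% to 38.29%, and other ribosomal RNA genes were not counted there. Values are given as CPM, counts scaled to a common library size after TMM normalization, and since the reads were amplified and carry no molecular identifiers, counting intervals cover counting error alone. Gpr34, which checks the genotype labels, lay between 100 and 113 CPM in KI B2 against 3.42 to 6.87 in control B2, and between 132 and 168 CPM in KI MemB against 18.8 to 30.8 in control MemB. The B cell markers Cd79a, Cd79b, Ms4a1 and Pax5 were present in every library, at 403 to 659, 413 to 670, 622 to 932 and 310 to 709 CPM. Ighd and Ighm, which the MemB gate excludes as surface protein, were still at 209 to 251 and 2010 to 2690 CPM in control MemB and at 66.4 to 101 and 297 to 566 CPM in KI MemB. The other B2 markers, Fcer2a and Cr2, went the opposite way, at 26.9 to 69.8 and 38.1 to 50.4 CPM in control MemB and at 76.7 to 151 and 56.2 to 97.5 CPM in KI MemB. Replicate 3 of every group was of the other sex, with 91355 to 105564 Xist counts against 875 to 2175 elsewhere. Titles call the replicates biological, and the labels do not state whether B2 and MemB libraries with the same number and genotype are from the same mouse. In bulk RNA, a smaller share of cycling cells and less RNA per cell cannot be told apart.

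The 10 genes together took a small share of the reads, from 4828 to 11895 counts per library, or 0.014% to 0.0323% of the total. The order of levels was compared as CPM per kb of exon sequence, the union of exons over all annotated transcripts of a gene. That length can exceed that of the expressed transcript, so the order depends on the annotation. The highest median over the 12 libraries was that of Mcm6, at 8.53 CPM per kb, followed by Mcm4 at 6.32, Mcm3 at 5.74 and Mcm7 at 4.02. Mcm2 (2.33), Gins2 (1.9) and Mcm5 (1.58) were lower, then came the loader Cdc6 at 0.784 and Cdc45 at 0.345, and Gins1 was lowest at 0.0362. By this measure subunits of the same ring differed in level, with Mcm6 (5.66 to 19.5 CPM per kb) above Mcm5 (0.188 to 3.06) in all 12 libraries. Most neighbours in the order could not be separated. Within a group, the libraries of neighbouring genes failed to overlap only for Mcm7 over Gins2 in control B2, Mcm3 over Mcm2 in KI B2 and Mcm3 over Mcm4 in KI MemB.

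Replicates of the same group differed widely for these genes. The biological coefficient of variation, edgeR's moderated estimate of spread between replicates beyond counting error, ran from 39.5% for Mcm6 to 146% for Gins1. Its median over the 10 genes was 74.8%, against 79.1% over all genes tested, which is not matched for level. Below the fitted trend of spread against level lay 3 of the 10 genes, against 60.9% of all genes. In the plot of spread against level, low genes vary more than high ones, and 9 of the 10 genes lie between the 5th and the 95th percentile of genes of like level. Gins2 is the exception, at 140% where the trend at its level is 71.2%. Mcm7 in control B2 showed how close replicates could be, at 18.4, 18.5 and 22.8 CPM. Cdc45 in KI B2 showed the opposite, at 2.08, 0.171 and 13.4 CPM, a ratio of 78.0 between the highest and the lowest library.

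**Figure D1:**
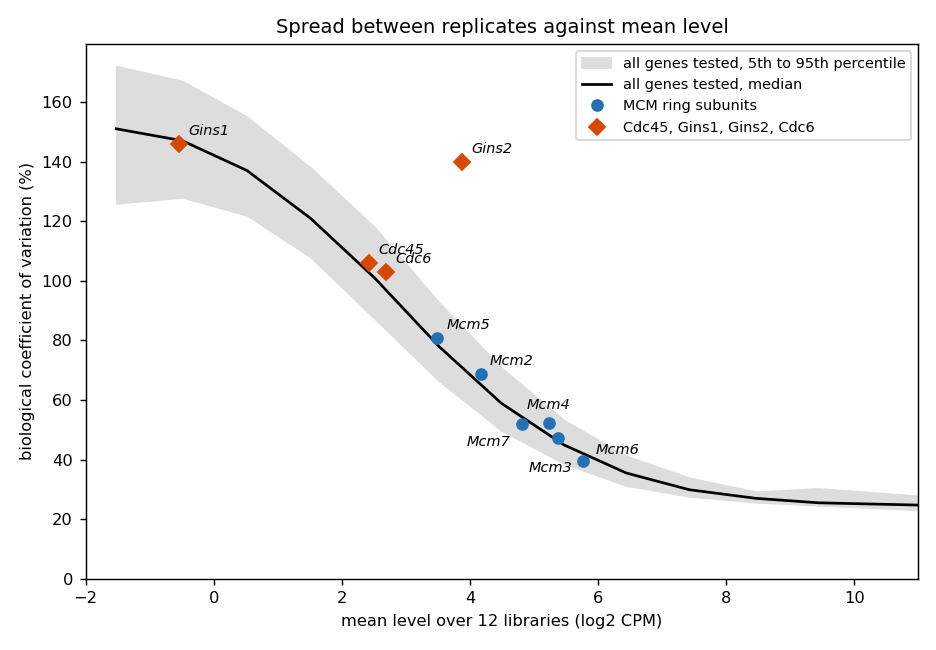
Biological coefficient of variation (percent) against mean level over the 12 libraries (log2 CPM) for the 10 genes, with the median (line) and the 5th to 95th percentile (band) of all 15148 genes tested. Gins2, at 140%, lies above the band, and the 6 MCM genes lie within it, between 39.5% and 80.9%.

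KI and control MemB were compared to ask whether the allele moved these genes in memory cells. None of the 10 genes was called with edgeR, where a call needed a log2 fold change past 1 in either direction at an adjusted p under 0.05, and which called 43 of all genes tested (0.284%). Cdc45 alone had an unadjusted p below 0.05, as did 11.1% of all genes, and DESeq2 on the same counts called 1 of the 10, again Cdc45, where it called 3.49% of all genes with an adjusted p. Fitted log2 fold changes were above 0 for 7 of the 10, with a median of 0.43 and a mean of 1.03, beside a median of -0.03 over all genes, 48.4% of which were above 0. The 6 MCM genes had a median of 0.11, with 3 above 0. Cdc45, Gins1, Gins2 and Cdc6 were all above 0, with a median of 1.96. The mean and the direction of both GINS genes rested on single libraries. Without KI MemB replicate 1 the mean over the 10 genes was -0.38 and Gins1 and Gins2 turned below 0, at -1.68 and -8.10, and without control MemB replicate 3 Gins2 was at -0.19.

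**Figure D2:**
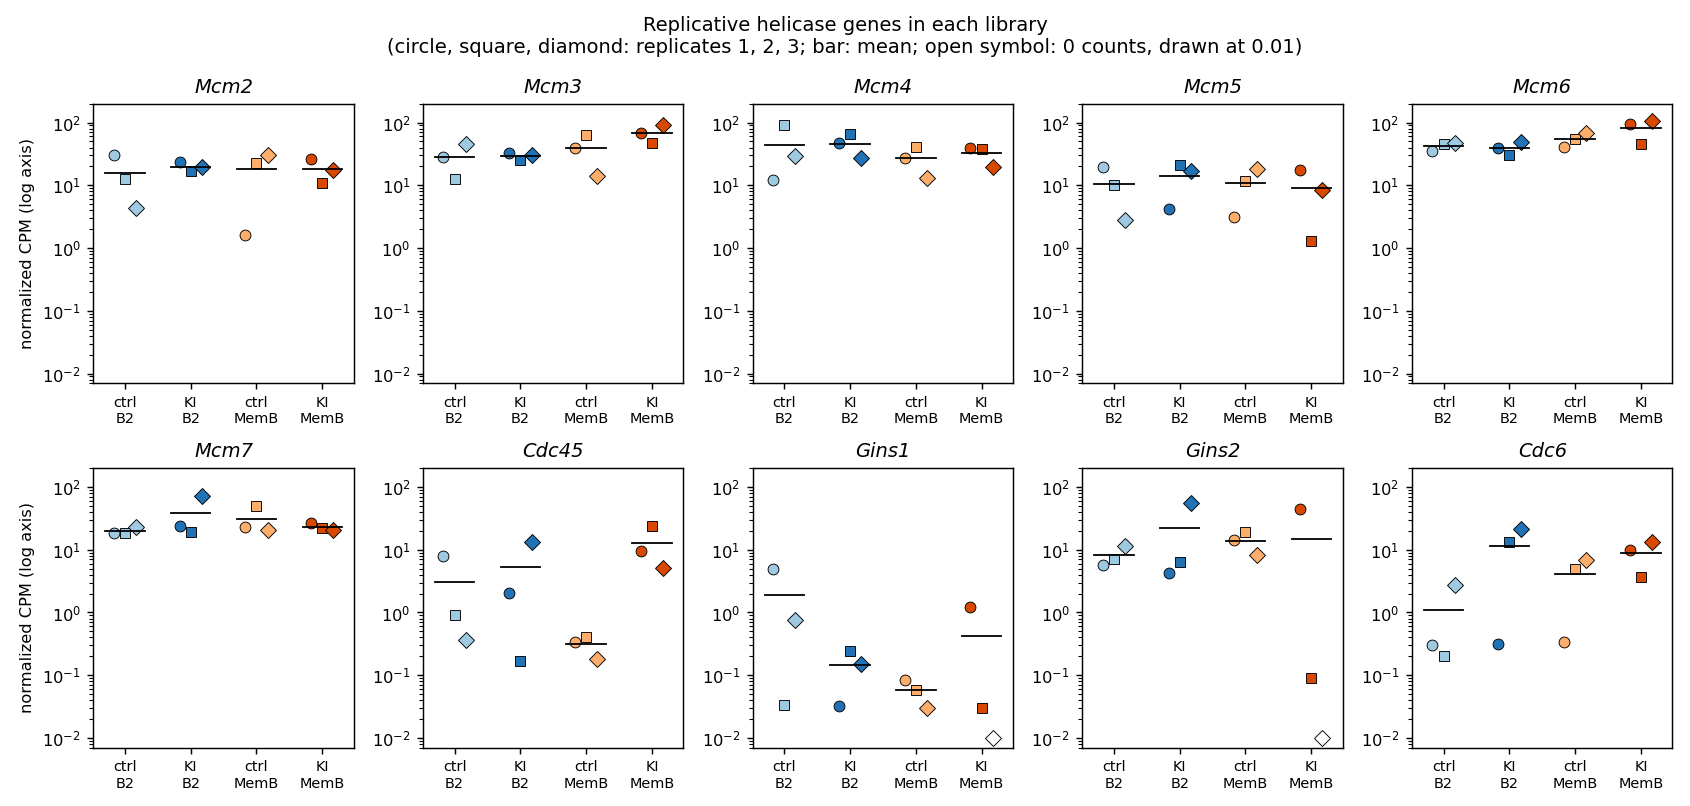
Normalized CPM (log axis) of each of the 10 genes in each of the 12 libraries, by group, with circles, squares and diamonds for replicates 1, 2 and 3, a bar at the group mean, and an open symbol at 0.01 where a library had 0 counts. Cdc45 is the single gene whose KI MemB libraries, 5.18 to 23.7 CPM, all lie above the control MemB libraries, 0.18 to 0.411 CPM.

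Mcm6, the ring subunit with the lowest coefficient of variation over the 12 libraries, was at 40.7, 54.8 and 67.2 CPM in control MemB and at 96.3, 44.8 and 106 CPM in KI MemB. KI replicates 1 and 3 lay above every control library and KI replicate 2 lay among them, so the groups overlapped (log2 fold change 0.60 ± 0.42 (SE), edgeR adjusted p = 0.639, and 0.38 to 0.90 with single libraries left out). Mcm3 was at 39.7, 63.4 and 13.9 CPM in control MemB and at 68.7, 46.7 and 91.3 CPM in KI MemB. KI replicates 1 and 3 again exceeded every control library (0.82 ± 0.53, edgeR adjusted p = 0.603). The log2 fold change of Mcm3 was 0.42 without control MemB replicate 3, 1.36 without control MemB replicate 2 and 0.18 without replicate 3 of every group.

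The other 4 subunits had log2 fold changes between -0.42 and 0.25. Mcm4 was at 27.0, 41.4 and 12.9 CPM in control MemB and at 39.0, 38.0 and 19.9 CPM in KI MemB (0.25 ± 0.60 (SE), edgeR adjusted p = 0.934). Mcm7 was at 22.6, 50.6 and 20.5 CPM in control MemB and at 26.8, 22.5 and 20.8 CPM in KI MemB (-0.42 ± 0.59, edgeR adjusted p = 0.873). The Mcm7 value above the others was control replicate 2, and without that library the log2 fold change was 0.11. Mcm2 was at 1.62, 22.9 and 30.8 CPM in control MemB and at 26.0, 10.7 and 17.3 CPM in KI MemB (-0.04 ± 0.81, edgeR adjusted p = 0.995). Mcm5 was at 3.13, 11.6 and 18.2 CPM in control MemB and at 17.3, 1.29 and 8.4 CPM in KI MemB (-0.29 ± 0.98, edgeR adjusted p = 0.958). For Mcm2, control replicate 1 lay far below the other control libraries. Mcm5 was widely spread in both groups, and its log2 fold change was -1.17 without KI replicate 1 and 0.23 without KI replicate 2. Leaving out single libraries turned the direction of these 4 genes, over ranges of -0.08 to 0.70 for Mcm4, -0.65 to 0.11 for Mcm7, -0.57 to 0.55 for Mcm2 and -1.17 to 0.29 for Mcm5. The 95% intervals of the differences, -0.96 to 1.47 for Mcm4 and -1.62 to 0.78 for Mcm7, still allow a change of over 1 on the log2 scale, so none of these genes is shown to be alike in the genotypes.

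Cdc45, the subunit that joins the ring to form the active helicase, differed most. It was at 0.341, 0.411 and 0.18 CPM in control MemB, from 12, 14 and 6 counts, and at 9.48, 23.7 and 5.18 CPM in KI MemB, from 278, 772 and 159 counts. The lowest KI library thus exceeded the highest control library, as for 6.01% of all genes tested, while none of the 10 genes was below, as for 6.08% of all genes. Group means were 0.310 ± 0.118 CPM (SD, n = 3) in control MemB and 12.8 ± 9.67 CPM (SD, n = 3) in KI MemB. The log2 fold change was 5.34 ± 1.64 (SE), with a 95% interval from 1.99 to 8.70. With edgeR the unadjusted p was 0.00274 and the adjusted p was 0.236, so Cdc45 was not called. DESeq2 gave a log2 fold change of 5.38 with an adjusted p of 0.00236, whereas over 19 edgeR fits, each library left out in turn included, adjusted p ranged from 0.137 to 0.416 and the log2 fold change from 4.54 to 5.72. Without replicate 3 of every group it was 5.46.

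Markers of other cells also differed between the MemB groups. The 6 T and NK cell markers summed to 61.4 to 99.1 CPM in control MemB and 1.43 to 15.4 in KI MemB, with Cd3d, Cd3g and Nkg7 lower in every KI library. The 5 B-1 cell markers summed to 527 to 580 CPM in control and 383 to 427 in KI MemB, with 4 of the 5 lower in every KI library. Sums for 6 plasma cell markers, 302 to 495 against 380 to 505 CPM, overlapped, although Jchain, the chain that joins secreted IgA and IgM, was higher in every KI library (5.57 to 18.0 against 72.1 to 196 CPM) and Irf4, a transcription factor of plasma cell differentiation, was lower in every one (267 to 385 against 202 to 241 CPM). KI MemB replicate 1, on which the mean over the 10 genes and the direction of both GINS genes rested, stood apart in Sdc1, the plasma cell surface marker CD138, at 14.4 CPM against 0.0899 or less in the other MemB libraries. Its Tnfrsf17, the receptor BCMA, was at 10.3 CPM, against 5.06 and 0.0326 in the other KI MemB libraries and 0.881 or less in control MemB. The 5 germinal centre markers, 8.87 to 34.1 against 25.8 to 78.8 CPM, overlapped too. Macrophage markers summed to 1.96, 23.8 and 3.96 CPM in control MemB and to 1.16 or less in KI MemB, with Cd14 at 0 in both. The 4 mast cell markers found in the table summed to 45.0, 1.53 and 240 CPM in control MemB, most in replicate 3. In KI MemB they summed to 1.77 or less. Without control MemB replicate 3 the log2 fold change of Mcm3 fell to 0.42, and Mcm2, Mcm4, Mcm5 and Gins2 turned direction. What part these differences have in the results for Cdc45, Gins1, Gins2, Mcm2, Mcm3, Mcm4 and Mcm5 was not tested.

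The loader Cdc6 was at 0.341, 4.87 and 6.89 CPM in control MemB and at 9.72, 3.74 and 13.4 CPM in KI MemB. KI replicates 1 and 3 were above every control library and replicate 2 was not (1.15 ± 1.33, edgeR adjusted p = 0.832, and 0.61 to 1.78 with single libraries left out). Gins1, a GINS subunit, was near the limit of detection in MemB, with 3, 2 and 1 counts in control and 36, 1 and 0 counts in KI libraries. Replicate 1 held all but 1 of the KI counts. The ratio of summed counts, scaled to library size, was 7.03 with an exact 95% counting interval of 2.94 to 20.4, which leaves out the spread between mice. The fitted log2 fold change of 2.77 (edgeR adjusted p = 0.687) depends on the prior count and became -1.68 without KI replicate 1. With Gins1 left out, the median over the 9 other genes was 0.25.

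Gins2, the second GINS subunit measured, rested on a single KI MemB library. It was at 14.3, 19.0 and 8.36 CPM in control MemB and at 43.9, 0.0919 and 0.0 CPM in KI MemB, where the counts were 1287, 3 and 0. KI replicate 1 was thus above and the remaining pair below every control library (0.08 ± 1.82, edgeR adjusted p = 0.995). Without KI replicate 1 the log2 fold change became -8.10 and Gins2 was called (edgeR adjusted p = 0.0335, within a range of 0.0335 to 0.997 over the fits that left out libraries), and the lone pair of KI libraries that remained had 3 and 0 counts.

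The transcripts of Gins2 share annotated sequence with a neighbour. On GRCm39, 2758 exon bases of Gins2 overlap those of Gse1, which lies on the opposite strand, and 60.6% of the 50-base stretches of its transcripts, as long as a read, also occur in transcripts of Gse1. RSEM divides such reads between genes by its model, and whether the counting used strand is not given in the sources used here. Expected counts of Gins2 were not whole in 11 of 12 libraries, by a tolerance of 1e-06. Gse1 was at 45.4, 87.0 and 22.6 CPM in control MemB and at 140, 64.6 and 77.2 CPM in KI MemB. It was thus present in both libraries where Gins2 was at or near 0.

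Shared sequence was less for the other genes. Mcm7, which hosts Mir25, Mir93 and Mir106b, shared 20.5% of its stretches, most of them with the predicted gene Gm5487, which was at 0.16 CPM or less, and it also overlaps exons of Cops6 and Ap4m1 on the opposite strand. Its expected counts too were not whole in 11 libraries. Cdc45 shared 10.7%, most with Ufd1 on the opposite strand, where 459 exon bases overlap. Ufd1 was at 35.1, 36.5 and 65.3 CPM in control MemB and at 45.7, 33.8 and 25.4 CPM in KI MemB, and its libraries overlapped between the groups. What part shared reads have in the values of Gins2 and Cdc45 was not tested. Cdc6 (3.5%) and Gins1 (3.01%) shared little, and the 5 remaining MCM genes shared under 1% each.

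**Figure D3:**
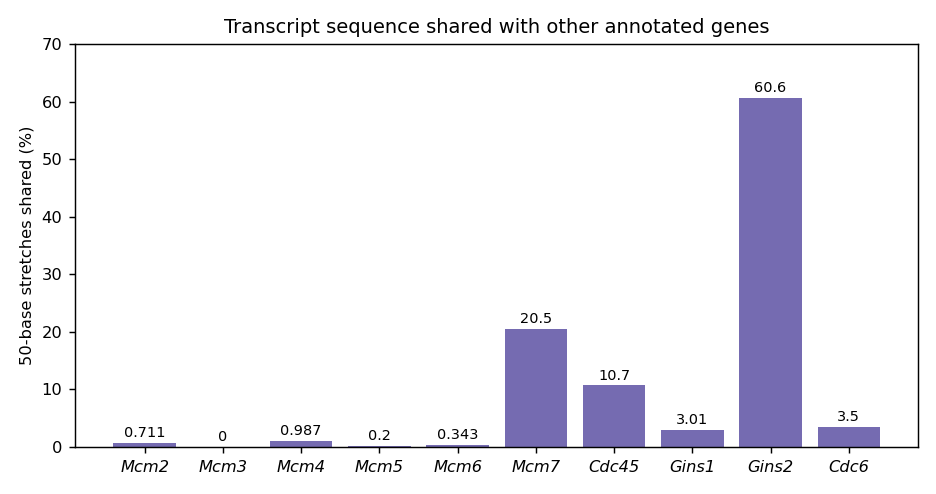
Percent of the 50-base stretches in the GENCODE M39 transcripts of each gene that also occur in a transcript of another annotated gene. Gins2 stands at 60.6%, Mcm7 at 20.5% and Cdc45 at 10.7%, and each of the other genes is at 3.5% or lower.

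In B2, KI and control libraries overlapped for each of the 10 genes, whereas 5.21% of all genes were higher and 4.99% lower in every KI library. With edgeR 0 of the 10 were called, against 0.0066% of all genes, and DESeq2 also called 0, against 0.289%. Cdc6 alone had an unadjusted p below 0.05, as did 5.74% of all genes. It was at 0.302, 0.201 and 2.79 CPM in control B2 and at 0.32, 13.1 and 21.2 CPM in KI B2, where replicate 1 lay within the control range (3.38 ± 1.44, edgeR unadjusted p = 0.0251, adjusted p = 0.838). Without control B2 replicate 3 the log2 fold change was 5.50, the largest of 13 fits that left out libraries, and without KI B2 replicate 3 it was 2.60, the smallest.

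Several B2 values rested on KI replicate 3. That library had 71.7 CPM of Mcm7 where the other KI libraries had 23.9 and 19.0 (0.94 ± 0.59, edgeR adjusted p = 0.905). It had 55.4 CPM of Gins2 against 4.22 and 6.41, and 13.4 CPM of Cdc45 against 2.08 and 0.171. Without it, the log2 fold change of Mcm7 was 0.11, that of Gins2 was -0.62 in place of 1.43 and that of Cdc45 was -1.46 in place of 0.76. The same library held 74.9 CPM of the 4 mast cell markers, against 1.53 and 1.15 in the other KI B2 libraries and 0.805 to 1.75 in control B2, and what part this has in its values was not tested. Gins1 went the other way, with 145, 1 and 25 counts in control B2 and 1, 10 and 6 in KI B2, and control replicate 1 carried most of its reads (-3.68 ± 2.21, edgeR adjusted p = 0.898, and -4.29 to -1.44 with single libraries left out). The remaining MCM genes had log2 fold changes between -0.13 and 0.39, and leaving out single libraries turned the direction of each, over -0.09 to 1.26 for Mcm2, -0.33 to 0.52 for Mcm3, -0.37 to 1.14 for Mcm4, -0.06 to 1.17 for Mcm5 and -0.30 to 0.02 for Mcm6. Mcm6 was at 35.5, 46.1 and 46.5 CPM in control B2 and at 38.6, 30.8 and 48.1 CPM in KI B2, with a 95% interval of the difference from -0.98 to 0.73.

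**Figure D4:**
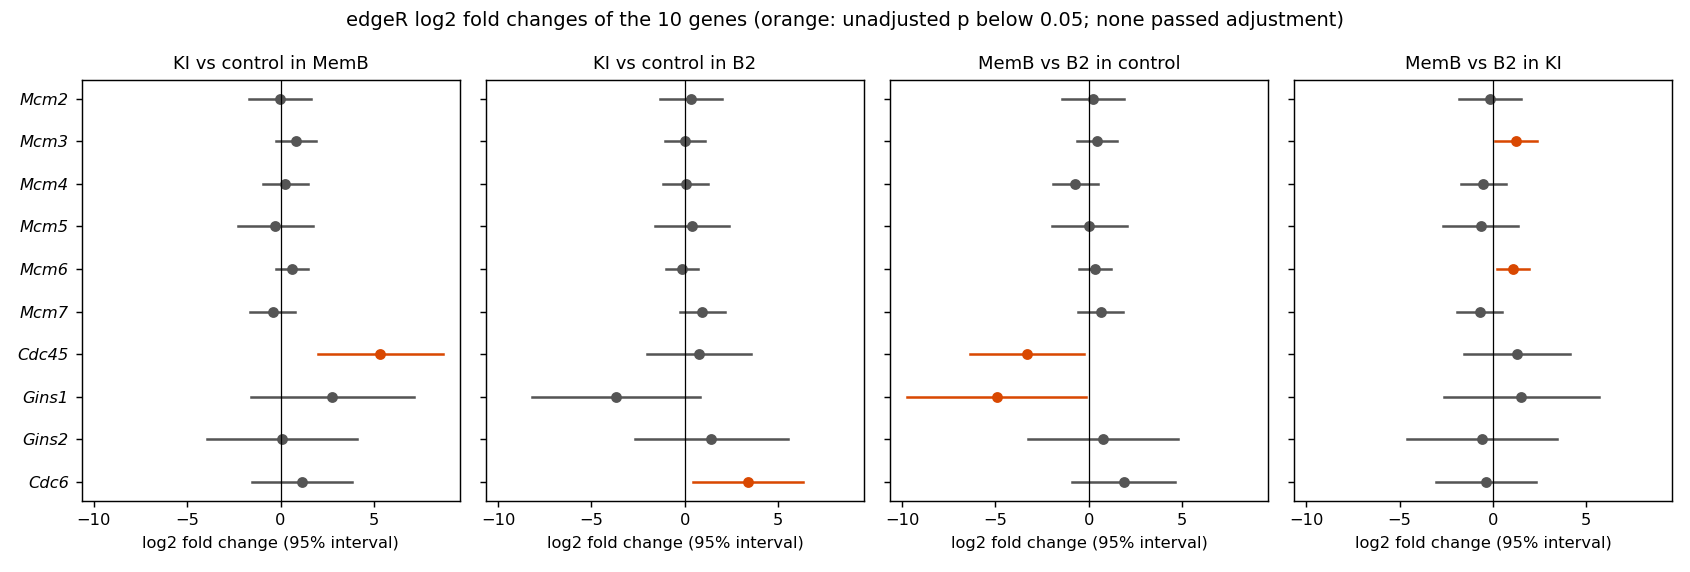
Fitted edgeR log2 fold changes (points) with 95% intervals (lines) of the 10 genes in 4 comparisons, KI against control in MemB and in B2 and MemB against B2 in control and in KI mice, orange where the unadjusted p was below 0.05. None passed adjustment, and the intervals are narrowest for Mcm6 and widest for Gins1.

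The KI effect in MemB minus that in B2 was tested as an interaction. edgeR called 0 of the 10 genes, against 0.066% of all genes, and DESeq2 called 0, against 1.52%. Cdc45 and Gins1 had an unadjusted p below 0.05, as did 8.49% of all genes. For Cdc45 the difference of the effects was 4.59 ± 2.03 (SE) on the log2 scale (edgeR unadjusted p = 0.0305, adjusted p = 0.526), with a range of 2.31 without control B2 replicate 1 to 7.43 without replicate 3 of every group. For Gins1 it was 6.45 ± 3.08 (edgeR adjusted p = 0.572), and 2.00 without KI MemB replicate 1. A KI effect on Cdc45 that differs between MemB and B2 was therefore not called. Over the 10 genes the median difference was -0.09 and the mean 0.68, which differ in sign, and the mean was -0.74 without KI MemB replicate 1.

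MemB and B2 of control mice differed in 0 of the 10 genes by edgeR, against 0.264% of all genes called, and DESeq2 called 0, against 2.9%. No gene of the 10 was higher in every control MemB library, as 6.32% of all genes were, nor lower in every one, as 5.95% were. Unadjusted p was below 0.05 for Cdc45 and Gins1, both with a negative log2 fold change, and for 10.6% of all genes. Cdc45 was at 7.97, 0.905 and 0.368 CPM in control B2 and at 0.341, 0.411 and 0.18 CPM in control MemB, so the distance came mainly from B2 replicate 1 (-3.29 ± 1.50, edgeR adjusted p = 0.443, and -1.01 without that library). Gins1 had 171 counts over the control B2 libraries, 145 of them in replicate 1, and 6 over control MemB, a ratio of 0.0292 with an exact 95% counting interval of 0.0106 to 0.065. The median over the 10 genes was 0.29 and the mean -0.46, again of unlike sign, and the mean was 0.04 without control B2 replicate 1.

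In KI mice, MemB and B2 differed in 0 of the 10 genes by edgeR and by DESeq2, against 0.363% of all genes called by edgeR and 2.88% by DESeq2. Mcm3 and Mcm6 had an unadjusted p below 0.05, as did 10.6% of all genes, both with a positive log2 fold change. Mcm3 was at 32.2, 25.3 and 30.0 CPM in KI B2 and at 68.7, 46.7 and 91.3 CPM in KI MemB, with every MemB library above every B2 library, as for 7.3% of all genes (1.24 ± 0.54, edgeR unadjusted p = 0.028, adjusted p = 0.416). Mcm6 was higher in 2 of the 3 KI MemB libraries than in any KI B2 library, and the remaining KI MemB library, at 44.8 CPM, lay among them (1.07 ± 0.43, edgeR unadjusted p = 0.017, adjusted p = 0.377). None of the 10 genes was lower in every KI MemB library, as 7.53% of all genes were. The comparisons share libraries, since KI MemB enters this one as well as that with control MemB. Gins2 without KI MemB replicate 1 was again called, at -8.76 (edgeR adjusted p = 0.00788, in a range of 0.00788 to 1.0 over the fits that left out libraries). Without that library the interaction for Gins2 was called as well, at -9.53 (edgeR adjusted p = 0.0268, in a range of 0.0268 to 0.99).

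The wider replication machinery was taken as 48 other genes, from the origin recognition complex to Okazaki fragment maturation, all of which were tested. edgeR called 0 of the 48 in each of the 5 comparisons. In KI against control MemB, 33 of 48 log2 fold changes were above 0 (68.8%, against 48.4% of all genes), with a median of 0.33 beside -0.03 over all genes. Unadjusted p was below 0.05 for 5 of the 48, all with a positive log2 fold change, a share near the 11.1% of all genes. In B2 the median was -0.00, with 24 above and 24 below 0. Unadjusted p was below 0.05 for 2 genes in B2, both with a negative log2 fold change, and for 5.74% of all genes. DESeq2 called 1 of the 48 in KI against control MemB, 1 in MemB against B2 of control mice and 1 in MemB against B2 of KI mice, where it called 3.49%, 2.9% and 2.88% of all genes, so these counts are near the background.

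**Figure D5:**
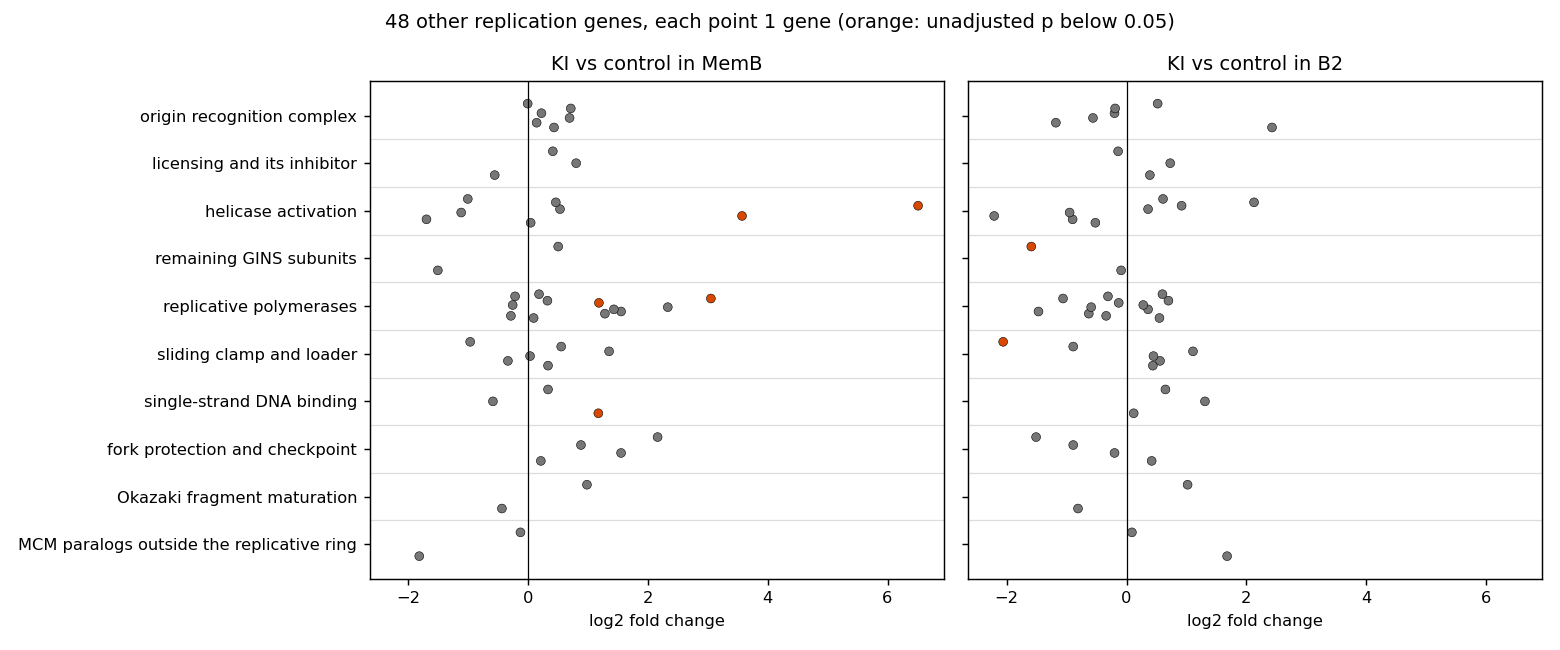
Log2 fold changes (edgeR) of the 48 other replication genes by role, KI against control in MemB (left) and in B2 (right), each point 1 gene and orange where the unadjusted p was below 0.05. In MemB 33 of the 48 points lie right of 0 and in B2 24 of the 48.

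By role, median log2 fold changes in KI against control MemB ran from -0.97 for the 2 MCM paralogs outside the replicative ring, with 0 above 0, and -0.51 for the 2 remaining GINS subunits to 1.21 for the 4 fork protection and checkpoint genes, all above 0. Those of the clamp and its loader (0.18), helicase activation (0.25), Okazaki fragment maturation (0.27), the origin recognition complex (0.33) and licensing (0.41) lay between. The 12 replicative polymerase and primase genes had a median of 0.75, with 9 above 0. Pold2, the second subunit of polymerase delta, was at 4.89, 0.616 and 0.899 CPM in control MemB and at 37.5, 2.33 and 13.1 CPM in KI MemB. KI replicate 2 lay within the control range (3.05 ± 1.10, edgeR unadjusted p = 0.00932, adjusted p = 0.325). DESeq2 called Pold2 (3.06, adjusted p = 0.0493), against adjusted p values of 0.229 to 0.61 and log2 fold changes of 1.86 to 4.54 in 19 edgeR fits.

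The 3 genes of RPA, which coats single-stranded DNA at the fork, had a median of 0.33. Rpa1 was at 35.6, 23.4 and 33.5 CPM in control MemB and at 77.6, 45.2 and 85.9 CPM in KI MemB, above in every library (1.17 ± 0.47, edgeR unadjusted p = 0.0172, adjusted p = 0.36). Orc3, Ticrr, Topbp1 and Rfc3 were likewise higher in every KI MemB library, which makes 5 of the 48 against 6.01% of all genes, and none of the 48 was lower in every one, against 6.08%. In B2, 1 of the 48 was higher in every KI library, against 5.21% of all genes. There 4 were lower in every one, against 4.99%, and Orc3 was among these. Ticrr, which helps CDC45 join the ring, was at 0.426, 1.41 and 0.18 CPM in control MemB and at 9.41, 5.33 and 9.25 CPM in KI MemB (3.57 ± 1.52, edgeR unadjusted p = 0.025). Recql4, a helicase that acts at the same step, held 2 counts or fewer in each library of control MemB and was at 13.6, 0.674 and 0.0 CPM in KI MemB, so its level there came from replicate 1. Pcna, the sliding clamp, had a log2 fold change of 0.33 ± 0.35 in MemB and 0.44 ± 0.35 in B2. Pcna, Topbp1 and Rfc3 were named after their values were seen.

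In KI against control B2, the smallest p values of the 48 belonged to Rfc5, of the clamp loader (-2.06 ± 0.77, edgeR unadjusted p = 0.0112, adjusted p = 0.838), Gins4 (-1.59 ± 0.76, edgeR adjusted p = 0.849) and Rpa2 (1.31 ± 0.75). Rfc5 was at 53.9, 9.59 and 23.2 CPM in control B2 and at 5.69, 9.18 and 5.9 CPM in KI B2, below in every library. Gins4, the GINS partner of the subunits above, was at 78.1, 31.8 and 28.8 CPM in control B2 and at 10.4, 32.5 and 3.29 CPM in KI B2. Its highest KI library exceeded the 2 lower control libraries.

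Between the cell types of control mice, the smallest p values of the 48 were those of Rpa2, Pold2 and Ticrr. Rpa2 was at 11.2, 2.45 and 4.97 CPM in control B2 and at 13.7, 41.3 and 32.0 CPM in control MemB, above in every library. DESeq2 called it (2.22, adjusted p = 0.0278) and 20 edgeR fits did not (adjusted p = 0.295 to 0.516, log2 fold change 1.84 to 2.97). Pold2 (-2.99 ± 1.10, edgeR adjusted p = 0.354) and Ticrr (-3.84 ± 1.54, edgeR adjusted p = 0.408) were at lower means in control MemB, with overlapping libraries. Between the cell types of KI mice they were those of Orc3, Rfc1 and Clspn. DESeq2 called Orc3 (1.14, adjusted p = 0.0372) and 20 edgeR fits did not (adjusted p = 0.182 to 0.524, log2 fold change 1.05 to 1.24). Orc3, of the origin recognition complex, was at 52.3, 41.3 and 50.4 CPM in KI B2 and at 118, 90.6 and 109 CPM in KI MemB. Rfc1, the large subunit of the clamp loader, was lower in every KI MemB library (-0.68 ± 0.35, edgeR adjusted p = 0.501), and Clspn, a checkpoint adaptor at the fork, overlapped (2.47 ± 1.29, edgeR adjusted p = 0.507). In the interaction, Ticrr (5.78 ± 2.08, edgeR adjusted p = 0.41), Pold2 (4.10 ± 1.49, edgeR adjusted p = 0.415) and Orc3 (1.25 ± 0.52, edgeR adjusted p = 0.495) came first.

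Over the 45 pairs of the 10 genes, Pearson's r of log2 CPM across the 12 libraries had a median of 0.16 and ran from -0.41 to 0.68, with 29 above 0. The highest was between Mcm2 and Mcm5, and the median of the 15 pairs within the ring was 0.1. These values are descriptions over libraries that share group and depth. The mean of the standardized levels was highest in KI MemB replicate 1 (0.88) and KI B2 replicate 3 (0.68) and lowest in control MemB replicate 1 (-0.65). A ranking by likeness to that mean left out the 10 genes, names without an initial capital, and names by Gm number, Rik or Ensembl identifier. Of the remaining genes, the 5 with the most similar profile over the 12 libraries were Plcd3 (r = 0.92), Ndufa11 (0.92), Eif2d (0.88), Pdlim2 (0.87) and Cox6c (0.84). None of them belongs to the replication list.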

How the data were processed

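RNAseq was analysed from 12 libraries, 3 per group. Per the study's methods and the submitters' processing notes, RNA was amplified with the Ovation RNA-seq System V2, sequenced as paired-end reads of 50 bases, examined with FastQC 0.12.1, trimmed with cutadapt 4.5, aligned to mm39 with STAR 2.7.11a and quantified with RSEM 1.3.3. The authors deposited RSEM expected counts per gene, not normalized. Before testing they were rounded, which affected the 32.2% of values above 0 that were not whole. The annotation is not given in the sources used here.

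Counts were tested with edgeR 4.0.16 in R 4.3.3 (TMM, a filterByExpr minimum of 10 counts, 4 group means fitted to 12 libraries by robust quasi-likelihood, Benjamini-Hochberg adjustment over 15148 genes). The SE is the log2 fold change divided by the square root of F. Correlations used log2(CPM + 1). Every value of the 10 genes was to be named, and of the 48 others those called or the 3 with the smallest p in a comparison. Members and lists were chosen with earlier results of these data known. P-values measure the spread between these libraries. Scripts were tested on simulated data. Alternatives were DESeq2 1.42.0, other size factors, no filter, non-robust fits, 6 libraries, blocks, and libraries left out.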

Additional observations from a re-analysis of the deposited data

How the results depend on the processing

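No alternative other than DESeq2 and single libraries left out changed how many of the 10 genes or of the 48 others were called. The direction of all 10 genes in the 5 comparisons, 50 values each, was kept with other size factors, without a filter, in non-robust fits and in DESeq2. With 6 libraries, which give no interaction, 36 of 36 directions were kept in the other 4 comparisons. DESeq2 called 1 of the 10 genes in KI against control MemB, and of the 48 others 1 there, 1 in MemB against B2 of control and 1 of KI mice. Over all genes, and in the order KI against control in MemB, in B2, MemB against B2 in control, in KI and the interaction, calls numbered 90, 8, 96, 105 and 44 without a filter and 479, 42, 398, 396 and 209 with DESeq2. Non-robust fits called 22, 24 and 4 genes in the first, the third and the fifth, 6 libraries called 15 in the first, and the replicate block called 6 in the fifth. With 6 libraries, where Gins1 was not tested, the mean log2 fold change of the genes between control MemB and B2 was 0.03. Causes of these changes were not tested.

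Deviations of same-numbered libraries from their group means correlated at -0.00395 to 0.0281. Libraries of unlike number were not compared, so these values cannot decide whether such libraries share a mouse. The numbers were not taken as pairs because the labels do not state pairing. With the replicate block, 47 of 50 directions were kept. Gins2 turned to -0.89 in KI against control MemB, and Gins1 to -0.85 and Cdc6 to 0.76 in MemB against B2 of KI mice. With mouse as a block, Gins1 turned to -1.38 and Cdc6 to 0.25 there, Mcm4 to -0.05 in the interaction, and the mean was -0.44 there in KI mice and -0.24 in the interaction. Between MemB and B2 of control mice the mean was -0.25 with the replicate block and -0.19 with the mouse block, and in the interaction 0.27 with the replicate block. Between MemB and B2 of KI mice it was 0.01 with the replicate block and 0.06 with 6 libraries, and in KI against control B2 0.58 and 0.82.

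Leaving out libraries, in 13 fits, gave the following ranges for counts of calls, means and those of the 10 genes whose direction changed. In KI against control MemB, 0 to 1 of the 10 genes and 15 to 50 of all genes were called, with a mean of -0.38 to 1.27, Mcm2 at -0.57 to 0.60, Mcm4 -0.08 to 0.70, Mcm5 -1.17 to 0.36, Mcm7 -0.65 to 0.11, Gins1 -1.68 to 3.35 and Gins2 -8.10 to 0.66. In B2, 1 to 2 of all genes were called, with a mean of -0.25 to 0.86, Mcm2 at -0.09 to 1.26, Mcm3 -0.33 to 0.52, Mcm4 -0.37 to 1.14, Mcm5 -0.21 to 1.17, Mcm6 -0.30 to 0.02, Cdc45 -1.97 to 3.05 and Gins2 -0.62 to 1.91. In control MemB against B2, 18 to 42 of all genes were called, with a mean of -0.71 to 0.04, Mcm2 at -0.78 to 1.14, Mcm3 -0.10 to 1.35, Mcm4 -1.16 to 0.37 and Mcm5 -0.98 to 0.79. In KI MemB against B2, 0 to 1 of the 10 genes and 27 to 60 of all genes were called, with a mean of -1.20 to 0.93, Mcm2 at -0.51 to 0.12, Mcm7 -1.03 to 0.21, Gins1 -2.94 to 2.16, Gins2 -8.76 to 2.07 and Cdc6 -0.93 to 0.42. In the interaction, 0 to 1 of the 10 genes and 5 to 10 of all genes were called, with a mean of -0.74 to 1.29, Mcm2 at -1.29 to 0.67, Mcm3 -0.33 to 1.34, Mcm4 -0.88 to 0.64, Mcm5 -1.57 to 0.57 and Gins2 -9.53 to 0.69. The 0 to 1 ranges came from KI MemB replicate 1, without which Gins2 was called. Counts of 3 or fewer in a library, as for Gins1 and Recql4 in control MemB and Gins2 in a pair of KI MemB libraries, leave a wide counting error at this depth.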
